A study of Mus musculus with 17 samples.

Results

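Mature miRNAs of the established mouse embryonic stem cell (ESC) line D3 were compared between embryoid bodies at day 7 and embryoid body outgrowths at day 21 of differentiation. The comparison used the 5 small RNA libraries of D3 at these stages that the miRNA table of the study holds, 2 at day 7 (replicates 2 and 3) and 3 at day 21 (replicates 1 to 3), of 14 libraries with values and 17 labelled samples of the lines B8 and D3. All 1033 mature miRNAs of the table were considered. The ESCs had been grown without feeder cells and with LIF, the cytokine that holds them undifferentiated. Embryoid bodies, which are round aggregates of differentiating cells, were made in hanging drops. Both stages were kept in medium without LIF and with retinoic acid (RA), insulin-transferrin-selenium (ITS) and N2 supplement, so both groups carried the same treatment and differed in time and in growth form. The labels name no genetic change in the line. They do not say whether replicates were separate cultures, so the p-values measure only a spread between libraries, which may be technical. That spread was estimated from all 14 libraries in 5 groups, B8 and undifferentiated D3 included, and not from the 5 compared libraries alone. Outgrowths hold many kinds of cells, and from such bulk samples fewer cells of a type and less RNA per cell cannot be told apart.

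A mature miRNA is a short RNA cut from one of the arms of a hairpin, the 5p or the 3p arm. It pairs with messenger RNAs mainly through its seed, bases 2 to 8, and represses them, so miRNAs with a common seed can act on common targets. miR-10a, miR-10b, miR-196 and miR-615 are encoded inside the Hox gene clusters, which set position along the body axis and which retinoic acid induces. Members of the let-7 family are low in ESCs and accumulate as cells mature, miR-1a, miR-133a, miR-208b and miR-499 belong to muscle, and the miR-290 and miR-302 clusters belong to early embryonic cells.

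The sequences of the miRNAs on which the results turn are given from 5′ to 3′, with the seed in capitals, from RefSeq on the build GRCm38.p6. Of the 521 miRNAs tested, 429 had a sequence in that table. The first set holds the Hox-embedded miRNAs that dominated day 7, and the neural miR-9-5p.
miR-10a-5p: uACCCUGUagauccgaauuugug
miR-10b-5p: uACCCUGUagaaccgaauuugug
miR-615-3p: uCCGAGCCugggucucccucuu
miR-9-5p: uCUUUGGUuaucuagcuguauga

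The next set holds 4 let-7 members that share a seed and behaved differently, miR-22-3p, which led the pool at day 21, and miR-208b-3p, which had the largest positive log2 change of the comparison.
let-7a-5p: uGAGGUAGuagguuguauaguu
let-7d-5p: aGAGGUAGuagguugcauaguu
let-7i-5p: uGAGGUAGuaguuugugcuguu
let-7e-5p: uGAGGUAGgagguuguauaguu
miR-22-3p: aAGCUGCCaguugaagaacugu
miR-208b-3p: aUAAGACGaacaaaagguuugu

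The last set is printed because its members share a seed within each group and changed by unequal amounts. These are miR-302d-3p with miR-295-3p, the miR-181 family, miR-363-3p with miR-367-3p, miR-148a-3p with miR-148b-3p, miR-29a-3p with miR-29c-3p, and miR-27a-3p with miR-27b-3p.
miR-302d-3p: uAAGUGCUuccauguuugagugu
miR-295-3p: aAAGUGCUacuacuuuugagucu
miR-181a-5p: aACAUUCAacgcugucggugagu
miR-181b-5p: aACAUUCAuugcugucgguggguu
miR-181c-5p: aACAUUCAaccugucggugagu
miR-181d-5p: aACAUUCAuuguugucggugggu
miR-363-3p: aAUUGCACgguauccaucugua
miR-367-3p: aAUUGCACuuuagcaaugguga
miR-148a-3p: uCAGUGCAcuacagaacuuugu
miR-148b-3p: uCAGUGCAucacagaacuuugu
miR-29a-3p: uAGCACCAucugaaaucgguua
miR-29c-3p: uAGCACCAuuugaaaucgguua
miR-27a-3p: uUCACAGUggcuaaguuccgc
miR-27b-3p: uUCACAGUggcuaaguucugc

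The libraries held 1008438 and 1060306 miRNA reads at day 7 and 547213 to 743039 at day 21. The deposited values are reads divided by a factor for each library. Their column totals were 830401.5 and 721724.3 at day 7 and 181720.7, 219167.7 and 282521.5 at day 21, a 3.41-fold difference of the means. A large part of that difference was miR-10a and miR-10b. Outside these hairpins the totals were 272434.2 and 263935.4 at day 7 and 160642.4, 188605.3 and 242915.2 at day 21. Each miRNA was therefore tested on the deposited values and on rescaled values, for which every library was divided by its median ratio to the other libraries of the comparison over the 533 miRNAs above 0 in all 5. The factors were 1.39 and 1.36 at day 7 and 0.682, 0.810 and 0.959 at day 21. The median log2 change of the 521 tested miRNAs was −0.60 on the deposited and 0.05 on the rescaled values, and it was 0.87 when all libraries were set to equal totals. Unless stated otherwise, values below are rescaled, "rose" and "fell" stand for a call in the same direction on both scales (limma on log2 values with Benjamini-Hochberg adjustment over all tested miRNAs, adjusted p under 0.05), and changes are log2 differences of day 21 from day 7 with their standard error. A count of 3 reads corresponded to a mean value of 1.64 at day 7 and 1.27 at day 21 on this scale.

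The make-up of the miRNA pool differed between the stages. At day 7 miR-10a-5p alone held 42.6% and 40.3% of the signal and miR-10b-5p came second. At day 21 miR-22-3p led with 9.44%, 9.34% and 10.3%. The effective number of miRNAs, which is the number of equally abundant miRNAs that would give the same diversity, was 12.2 and 14.4 at day 7 and 61.3, 61.2 and 57.5 at day 21. It took 34 and 37 miRNAs to reach 90% of the signal at day 7 and 66 to 70 at day 21. A pair of miRNAs thus dominated the embryoid bodies, and the outgrowths had a more even pool. Within the share that miR-10 left, the Dlk1-Dio3 region held similar portions, with 18.2% to 19.6% of the signal outside miR-10 at day 7 and 17.4% to 20.1% at day 21.

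**Figure D1:**
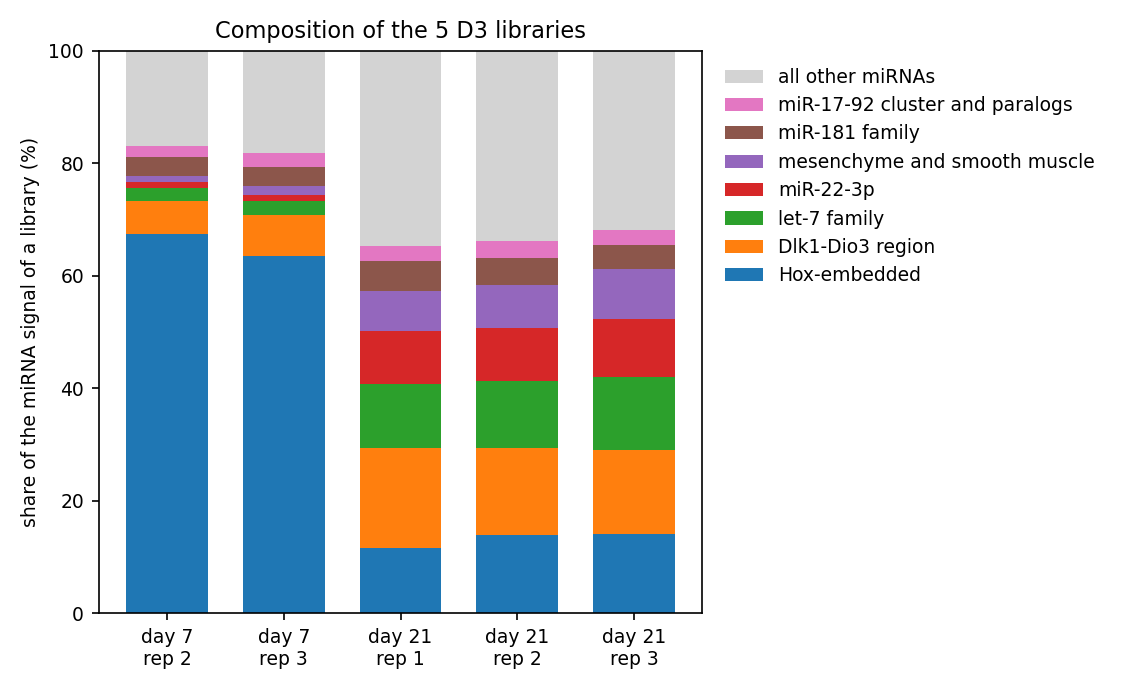
Share of the miRNA signal of each D3 library (percent of the deposited column total) held by miRNA groups, with replicates 2 and 3 of day 7 and replicates 1 to 3 of day 21 as bars. Hox-embedded miRNAs fill 65.5% of the day 7 bars on average and 13.2% of the day 21 bars, where let-7 miRNAs, miR-22-3p and mesenchymal miRNAs take larger shares. The mean shares of the Dlk1-Dio3 (6.58% to 16.1%), miR-181 (3.35% to 4.82%) and miR-17-92 (2.25% to 2.80%) groups are also larger at day 21.

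On the deposited values 42 miRNAs were higher at day 21 (8.06%) and 164 were lower (31.5%). On the rescaled values 101 were higher (19.4%) and 58 were lower (11.1%). Both scales called 42 higher (8.06%) and 58 lower (11.1%), and none were called in opposite directions. The 42 were all the miRNAs called higher on the deposited values, and the 58 all those called lower on the rescaled values. Rescaling moves nearly every change upward by a similar amount, so the absence of opposite calls follows largely from the arithmetic. Counts of a list below are to be read against the shares over all tested miRNAs given here. The day 21 libraries lay above both day 7 libraries for 34.4% of all tested miRNAs and below both for 31.1%. All 42 and all 58 were among these. Of the 42, 6 passed the filter on low values (a mean of at least 5 per 1000000 over the 14 libraries) only through the day 21 libraries, and of the 58, 1 passed only through day 7. The 59 miRNAs called higher on the rescaled values only, and the 106 called lower on the deposited values only, change with the scale and are named as such. The rescaled counts were 63 higher and 34 lower without replicate 2 of day 7, and 54 and 33 without its replicate 3. The deposited counts were 27 and 89 without replicate 2 of day 7. The deposited calls of miR-148a-3p, miR-205-5p and miR-23a-3p were lost without replicate 2 of day 7 (1.12, 0.63 and 1.27), that of miR-574-3p without its replicate 3 (1.51), and that of miR-351-5p without either (0.87 and 1.05). The deposited calls of let-7g-5p, miR-302b-3p, miR-27a-3p and miR-146a-5p were lost without any 1 of 4 libraries and those of miR-98-5p and miR-322-3p without any 1 of 3. The rescaled calls of these 11 miRNAs held without each library. With equal totals all 42 rises were still called, whereas of the 58 falls 36 kept a negative sign, 11 of them called lower, and 22 turned positive. The falls called lower there were the 6 Hox-embedded miRNAs, miR-219a-1-3p, miR-9-5p, miR-181a-1-3p, miR-6539 and miR-3078-5p.

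**Figure D2:**
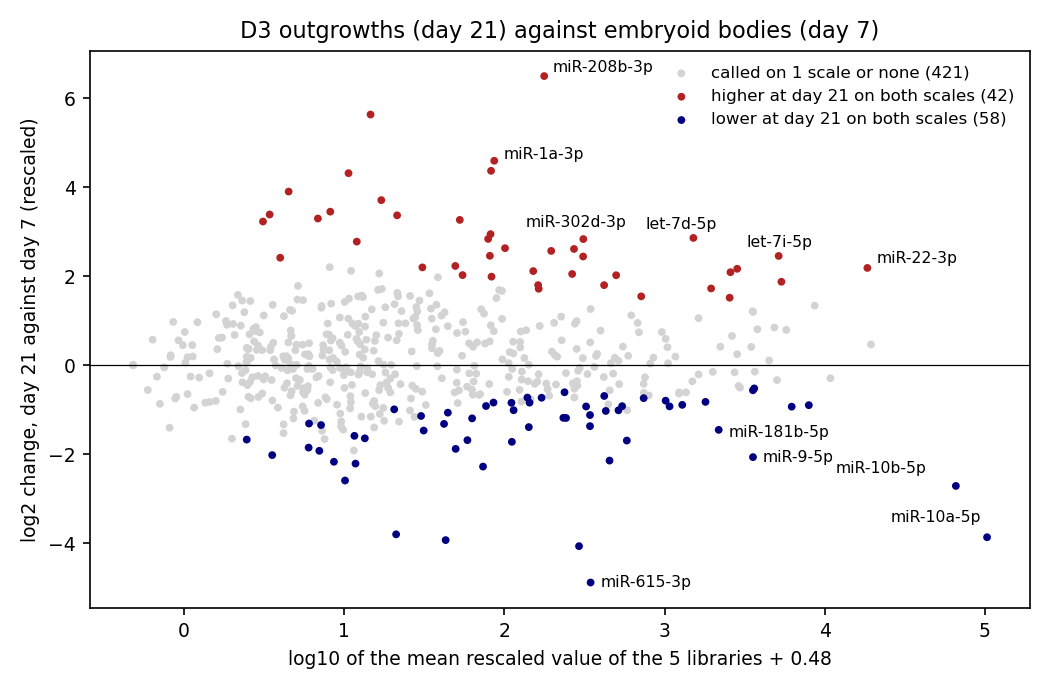
Log2 change of day 21 against day 7 on the rescaled values (vertical axis) against the mean rescaled value of the 5 libraries (horizontal axis, log10) for the 521 tested miRNAs. The 42 red points rose and the 58 blue points fell on both scales, and miR-10a-5p and miR-10b-5p stand at the right as the most abundant miRNAs.

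Hox-embedded miRNAs fell furthest. Of the 10 listed, 8 were tested and 6 fell, with a list median of −3.84 against 0.05 for all tested miRNAs. miR-615-3p, which lies in Hoxc5 (chr15:103014969-103014990, plus strand), was at 852 and 789 at day 7 and 36.0, 26.6 and 21.2 at day 21. All 3 outgrowth libraries lay far below both embryoid body libraries, and the log2 change was −4.89 ± 0.44 (limma adjusted p = 1.41e-07). miR-10a-5p (chr11:96317186-96317208, plus strand) was at 254428 and 213913 at day 7 and 13189, 16978 and 18214 at day 21, a change of −3.87 ± 0.23 (limma adjusted p = 1.08e-09). It went from place 1 to place 4 in abundance. miR-10b-5p, which lies within transcripts of Hoxd3 and Hoxd4 (chr2:74726074-74726096, plus strand), was at 146393 and 122106 at day 7 and 17664, 20731 and 23052 at day 21 and changed by −2.72 ± 0.23 (limma adjusted p = 5.24e-08). The fall of miR-10a was larger than that of miR-10b within each library: the ratio of miR-10a-5p to miR-10b-5p was 1.74 and 1.75 at day 7 and 0.747, 0.819 and 0.790 at day 21. Such a ratio within a library does not depend on the scale. This and the other ratios between miRNAs were chosen after the values were seen and were not tested, and since the sequences of miR-10a-5p and miR-10b-5p differ at 1 position, their levels are uncertain one by one. The opposite strands of these hairpins moved with them, miR-10a-3p by −4.07 ± 0.39, miR-10b-3p by −3.93 ± 0.48 and miR-615-5p by −3.80 ± 0.53. miR-196a-5p stood apart from the list at 3.38 and 3.16 at day 7 and 10.7, 6.92 and 9.54 at day 21. It was higher on the rescaled values only (1.33 ± 0.38, limma adjusted p = 0.0127), and it rests on 6 and 6 reads at day 7 and 22, 19 and 23 at day 21. The miR-10 level of the outgrowths was still well above that of undifferentiated D3 cells, where miR-10 held 0.081% to 0.160% of the signal.

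Neural miRNAs fell in 6 of 18 tested (29 listed), and miR-129-2-3p was higher on the rescaled values only. The list median was −0.65, but 0.35 with equal totals. miR-9-5p, which acts in neural progenitors, was at 7113 and 6019 at day 7 and 1333, 1704 and 1671 at day 21, with the outgrowths well below the embryoid bodies (log2 change −2.07 ± 0.31, limma adjusted p = 5.03e-05). It dropped from place 7 to place 35 in abundance. miR-219a-2-3p, of the oligodendrocyte miRNA family miR-219, was at 1063 and 922 at day 7 and 325, 330.1 and 265 at day 21 and fell by 1.70 ± 0.33. miR-219a-1-3p, from another hairpin of that family, fell by 2.28 ± 0.34. miR-128-3p, which is abundant in neurons, had a smaller change of −0.73 ± 0.24 that turned to 0.29 with equal totals and was not called without any 1 of 4 libraries (−0.83 to −0.70). miR-124-3p, the defining miRNA of differentiated neurons, was at 3.38 and 5.79 at day 7 and 5.84, 3.64 and 4.15 at day 21, which stands for 6 and 11 reads at day 7 and 12, 10 and 10 at day 21, with no difference that could be called (0.01 ± 0.81). Its opposite strand miR-124-5p was at 25.9 and 22.1 at day 7 and 7.79, 9.47 and 9.13 at day 21. It was lower on the deposited values only (−1.40 ± 0.88). The groups did not overlap, but 31.1% of all tested miRNAs likewise had every day 21 library below both day 7 libraries. Against these, miR-129-2-3p was at 7.89 and 3.68 at day 7 and 20.9, 19.3 and 11.2 at day 21.

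The miR-181 family split. Of 7 members tested, 4 fell and miR-181c-5p was higher on the rescaled values only. The list median was −1.12, but −0.10 with equal totals, where 2 members were called higher and 1 lower. miR-181b-5p was at 3739.8 and 3307 at day 7 and 1344, 1259 and 1246 at day 21 (log2 change −1.46 ± 0.28, limma adjusted p = 0.00057, −0.43 and not called with equal totals). Its neighbour miR-181a-5p, cut from the same clusters on chromosomes 1 and 2, was at 12791 and 11638 at day 7 and 10841, 9658 and 9397 at day 21 and missed the threshold on the rescaled values (−0.29 ± 0.28). The ratio of miR-181a-5p to miR-181b-5p within libraries was 3.42 and 3.52 at day 7 and 8.07, 7.67 and 7.54 at day 21. The other strand of a miR-181a hairpin, miR-181a-1-3p, was at 889 and 802 at day 7 and 164, 198 and 212.8 at day 21 and fell by 2.15 ± 0.25. Strands of the same family thus changed by unequal amounts.

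The miR-17-92 cluster and its paralogs, which promote proliferation, fell in 11 of 25 tested members and rose in none. The list median was −0.77, and it was 0.17 with equal totals, where none of the 25 were called lower. miR-363-3p was at 233 and 218 at day 7 and 78.4, 83.4 and 95.4 at day 21 (log2 change −1.39 ± 0.18, limma adjusted p = 7.3e-06), with −0.37 at equal totals. miR-92a-1-5p changed by −1.37 ± 0.18 and miR-18b-5p by −1.47 ± 0.34. miR-17-5p was at 762 and 751 at day 7 and 356, 402 and 443 at day 21 (−0.92 ± 0.23, 0.10 with equal totals). Its groups did not overlap, as for the 31.1% of all tested miRNAs that lay below. miR-20a-5p changed by −1.02 ± 0.28 (0.0074 with equal totals), miR-93-5p by −0.83 ± 0.17 (0.20) and miR-92a-3p by −0.93 ± 0.20 (0.096). miR-25-3p is the one miRNA of the 58 that was called higher with equal totals, at 0.50 against −0.52 ± 0.15 on the rescaled values. Without replicate 3 of day 7 or replicate 1 of day 21 its rescaled call was lost (−0.49 and −0.42), and that of miR-20a-5p without either day 7 library (−1.05 and −1.04). All 25 tested members lay below 0 on the rescaled values, whereas 271 of the 521 tested miRNAs lay above 0.

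The miR-130 and miR-301 family, tested in 8 members, fell in 3 and had a median of −0.77, but 0.19 with equal totals. miR-130b-3p was at 979 and 972 at day 7 and 625, 589.5 and 537 at day 21 and changed by −0.74 ± 0.17 (0.28 with equal totals). miR-301a-3p changed by −0.57 ± 0.17 (0.46 with equal totals). Abundant miRNAs outside these lists also fell. miR-92b-3p was at 11693 and 10307 at day 7 and 6880.0, 6050.0 and 4884 at day 21 (log2 change −0.90 ± 0.29, limma adjusted p = 0.0236, 0.12 with equal totals). miR-298-5p of the imprinted Gnas region was at 9549 and 7749 at day 7 and 5912, 4447 and 3469 at day 21 (−0.93 ± 0.25, 0.090 with equal totals), and its neighbour miR-296-3p changed by −1.03 ± 0.27, a call lost without replicate 2 of day 7 (−1.01). For this group of moderate falls the direction depends on how the libraries are scaled. The rescaled calls of miR-92b-3p (−1.03 to −0.77), miR-301a-3p (−0.64 to −0.47) and miR-298-5p (−0.81 to −0.75) were each lost without any 1 of 2 or 3 of the 5 libraries.

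**Figure D3:**
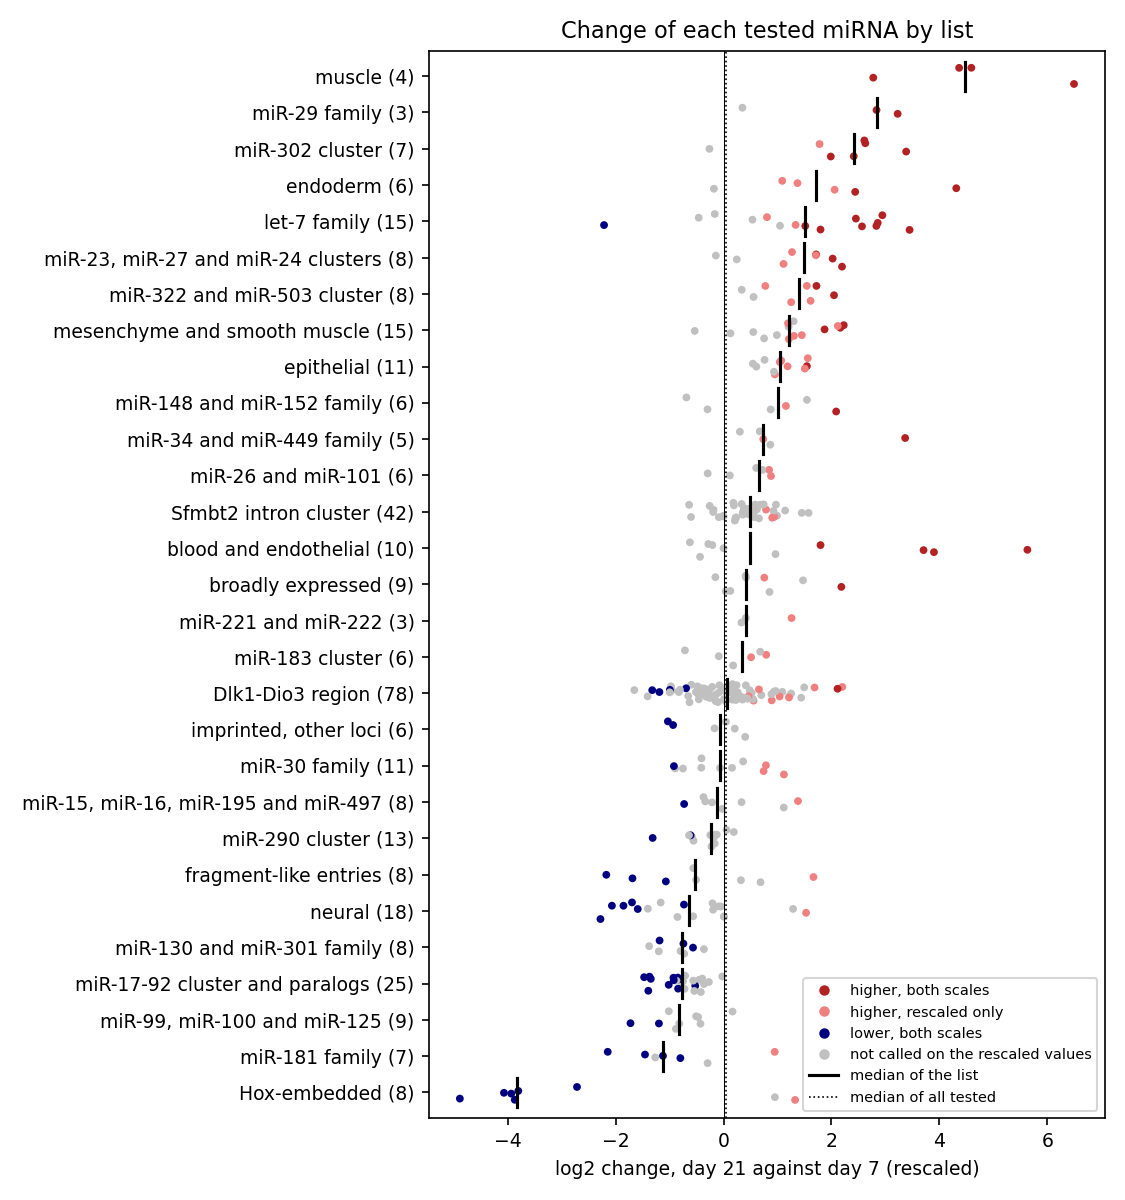
Log2 change of day 21 against day 7 (rescaled) of each tested miRNA by list, with the number tested in brackets, the list median as a black bar and the median of all tested miRNAs as a dotted line. The miR-29, miR-302, endodermal and let-7 lists lie to the right with list medians of 2.83, 2.41, 1.71 and 1.51, and the Hox-embedded list lies at the left with −3.84. The 4 tested muscle miRNAs lie farthest to the right, of which 2 passed the filter only through day 21. In the endodermal list and in the let-7 list 1 member each passed only through day 21.

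Of 15 muscle miRNAs listed, 4 passed the filter on low values, and these 4 rose. miR-208b-3p and miR-1a-3p passed the filter only through the day 21 libraries, where they were high, so the count does not describe the list as a whole. The 11 others had 0 or 1 read over both day 7 libraries and 1 to 39 reads over the day 21 libraries, with the most for miR-133b-3p and miR-208a-3p. miR-208b-3p, which lies within the heart and slow muscle myosin gene Myh7 (chr14:54975710-54975731, minus strand), was at 1.69 and 3.68 at day 7 and 172, 450.3 and 256 at day 21. The outgrowths were all far above the embryoid bodies, with replicate 2 highest (log2 change 6.49 ± 0.75, limma adjusted p = 2.62e-06). miR-1a-3p, made in heart and skeletal muscle, was at 3.95 and 5.26 at day 7 and 74.0, 251 and 95.4 at day 21 and changed by 4.59 ± 0.58 (limma adjusted p = 7.41e-06). miR-133a-3p, made from the same transcripts as miR-1a, was at 5.07 and 5.79 at day 7 and 79.3, 217 and 103 at day 21 and changed by 4.37 ± 0.79. Both were again highest in replicate 2 of day 21. miR-499-5p, within the myosin gene Myh7b, was at 1.69 and 2.63 at day 7 and 12.7, 19.3 and 21.2 at day 21 (2.77 ± 0.81), and its call was lost without either of the day 7 libraries, with changes of 2.48 and 2.98, and on the deposited values without any 1 of 4 libraries (1.84 to 2.36). As a group the 15 listed miRNAs went from 0.0028% to 0.216% ± 0.120 of the whole signal (SD, n = 3), which miR-10 dominated at day 7. Outside miR-10 their share was 0.0069% to 0.0089% at day 7 and 0.148% to 0.410% at day 21.

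The let-7 family rose in 8 of 15 tested members (21 listed) and fell in 1. Of the 8, 1 (let-7b-3p) passed the filter only through the day 21 libraries, where it was high. The list median was 1.51, and its share of the signal went from 2.37% ± 0.211 (SD, n = 2) to 12.1% ± 0.873 (SD, n = 3). Outside miR-10 its share was 6.78% to 6.89% at day 7 and 12.9% to 15.2% at day 21. let-7d-5p was at 304 and 332 at day 7 and 2191, 2155 and 2588 at day 21, with a tight spread in both groups (log2 change 2.86 ± 0.20, limma adjusted p = 7.22e-09). let-7i-5p was at 1504 and 1281 at day 7 and 6761, 7067 and 9187 at day 21 and changed by 2.45 ± 0.22 (limma adjusted p = 1.09e-07). It moved from place 38 to place 7 in abundance. let-7b-5p changed by 2.83 ± 0.35, let-7f-5p by 2.94 ± 0.52, miR-98-5p by 1.80 ± 0.25 and let-7g-5p by 1.51 ± 0.22. The most abundant member, let-7a-5p, was at 4434 and 4581 at day 7 and 10151, 11175 and 12976 at day 21 and was higher on the rescaled values only (1.34 ± 0.19, deposited 0.57). let-7c-5p was likewise higher on the rescaled values only (0.81 ± 0.20, deposited 0.04).

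let-7e-5p did not join them. It was at 2810.1 and 3046 at day 7 and 2594, 2588 and 2656 at day 21, a change of −0.16 ± 0.17 with a 95% interval of −0.52 to 0.19, and it was lower on the deposited values (−0.93). Within libraries the ratio of let-7d-5p to let-7e-5p went from 0.108 and 0.109 to 0.845, 0.833 and 0.974. The ratio of let-7i-5p to let-7e-5p went from 0.535 and 0.421 to 2.61, 2.73 and 3.46. let-7e is cut from a cluster with miR-99b and miR-125a on chromosome 17 (17830194 to 17830876), and both of these were lower on the deposited values only, miR-99b-5p with −0.47 ± 0.24 and miR-125a-5p with −0.51 ± 0.20. miR-99b-3p of that cluster fell by 1.72 ± 0.29. The let-7 member that fell was the minor strand let-7c-1-3p, at 25.4 and 17.9 at day 7 and 4.38, 2.91 and 5.81 at day 21 (−2.21 ± 0.54, limma adjusted p = 0.00454), a call lost without replicate 2 of day 7 (−1.98). let-7 members of 1 position difference, such as let-7a-5p and let-7e-5p, are uncertain one by one, since how reads matching several miRNAs were counted is not given in the sources used here.

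The list of miR-99, miR-100 and miR-125 had none of 9 tested members higher and 2 that fell, where 11.1% of all tested miRNAs fell. Its median of −0.82 turned to 0.20 with equal totals, where 2 members were called higher and none lower. miR-125b-5p was at 827 and 761 at day 7 and 919, 845 and 909 at day 21 and was called on neither scale. miR-100-5p was at 836 and 823 at day 7 and 305, 434 and 521 at day 21, which was lower on the deposited values only. The miRNA miR-351-5p, with the seed of miR-125, rose and was at 761 and 879.6 at day 7 and 3030.4, 2612 and 2485 at day 21 (1.72 ± 0.24, limma adjusted p = 1.72e-05). Its ratio to miR-125a-5p went from 0.209 and 0.248 to 1.07, 1.14 and 0.990. miR-351 belongs to the cluster of miR-322 and miR-503 on the X chromosome, where 2 of 8 tested members rose and 4 more were higher on the rescaled values only (median 1.40). miR-322-3p was at 80.1 and 104 at day 7 and 345, 374 and 419 at day 21 and changed by 2.05 ± 0.40.

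**Figure D4:**
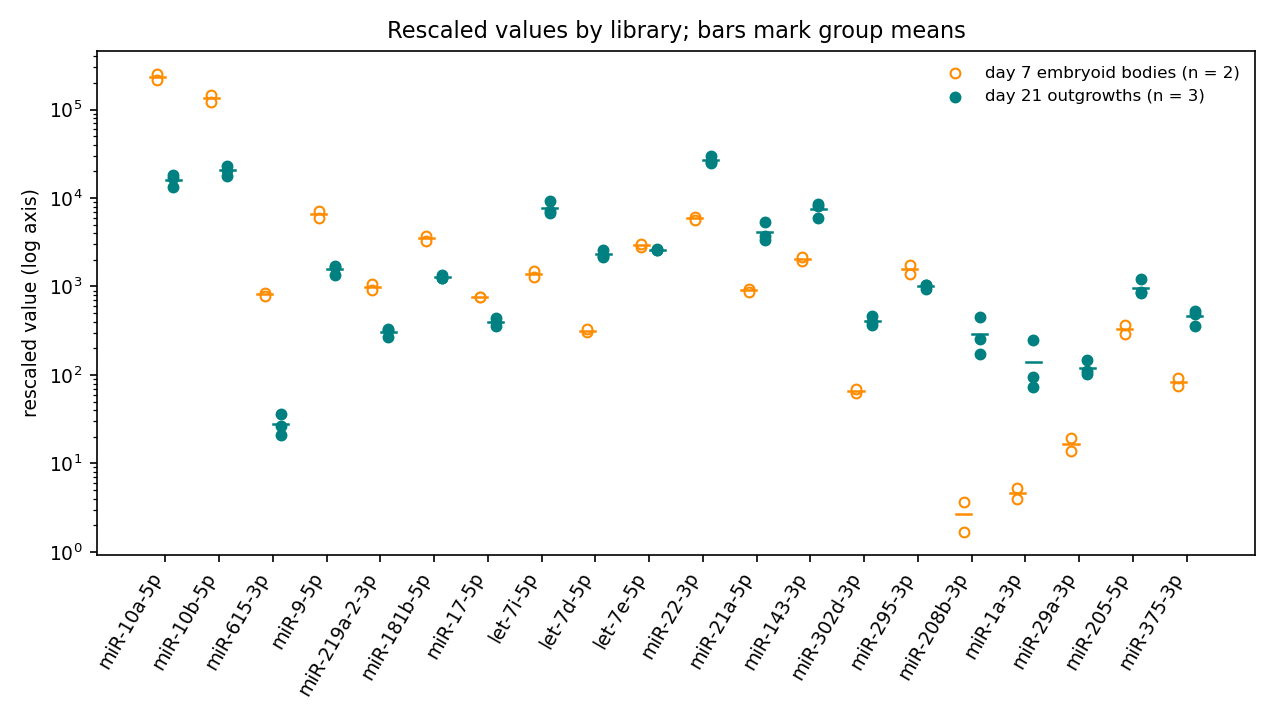
Rescaled values of 20 miRNAs in each library (log axis), with open points for the 2 embryoid body libraries of day 7, filled points for the 3 outgrowth libraries of day 21, and bars for group means. miR-10, miR-615-3p, miR-9-5p, miR-181b-5p and miR-17-5p are lower at day 21, let-7e-5p is at nearly the same level, and miR-208b-3p goes from 1.69 and 3.68 to between 172 and 450.

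Mesenchymal and smooth muscle miRNAs rose in 3 of 15 tested, and 5 more were higher on the rescaled values only (median 1.21). Over all tested miRNAs 8.06% rose and 19.4% were higher on the rescaled values. miR-143-3p, a smooth muscle miRNA, was at 1931 and 2168 at day 7 and 5989.8, 8219 and 8537 at day 21 (log2 change 1.87 ± 0.19, limma adjusted p = 6.42e-07). The day 21 libraries of miR-143-3p lay above both day 7 libraries, as for 34.4% of all tested miRNAs. The cluster partner of miR-143, miR-145a-5p, was at 17.5 and 12.6 at day 7 and 67.7, 73.2 and 73.4 at day 21 and changed by 2.23 ± 0.52, a call lost without replicate 3 of day 7 (1.96), and on the deposited values without any 1 of 4 libraries (1.23 to 1.72). miR-21a-5p was at 936 and 871 at day 7 and 3684, 3355 and 5365 at day 21, highest in replicate 3 of day 21 (2.16 ± 0.24, limma adjusted p = 1.84e-06). miR-199a-3p and miR-199b-3p have the same sequence and cannot be told apart. Both were higher on the rescaled values only (1.21 ± 0.35 and 1.19 ± 0.34). miR-214-3p, from the same transcript as a miR-199a hairpin, was at 308 and 361 at day 7 and 224, 201 and 271 at day 21 and was lower on the deposited values only. Of the 15 tested members 14 lay above 0 on the rescaled values, and miR-214-3p was the exception.

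miR-22-3p, a broadly expressed miRNA that is abundant in heart and mesenchyme, was at 6103 and 5695 at day 7 and 25149, 25274 and 30209 at day 21 and rose from place 8 to place 1 (log2 change 2.18 ± 0.16, limma adjusted p = 8.58e-09). Among the 9 broadly expressed miRNAs tested it was the 1 that rose, near the 8.06% of all tested miRNAs. The others included miR-191-5p at 0.41 ± 0.22 and miR-103-3p at −0.15 ± 0.19, of which neither passed the test on the rescaled values. miR-29a-3p, which targets collagen messages, was at 19.2 and 13.7 at day 7 and 101, 111 and 148 at day 21 and changed by 2.83 ± 0.26 (limma adjusted p = 1.82e-07). miR-29b-3p was at 0 and 0 at day 7 and 2.43, 3.64 and 7.05 at day 21, at least 2.68-fold higher than the mean value of 3 reads at day 7. miR-29c-3p was at 7.89 and 4.21 at day 7 and 7.79, 7.29 and 7.47 at day 21 with no call (0.35 ± 0.66). Of the miRNAs in no list, miR-378a-3p changed by 2.02 ± 0.22 and miR-574-3p by 2.46 ± 0.42, and miR-6538 was at 6.20 and 9.47 at day 7 and 64.7, 119.9 and 60.6 at day 21 (3.26 ± 0.79, not called without replicate 2 of day 7, 2.94).

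The miR-302 cluster (chr3:127545275-127545800, plus strand) rose, and no member of the miR-290 cluster did. Of 7 miR-302 miRNAs tested (8 listed), 5 rose and 1 more was higher on the rescaled values only, with a median of 2.41 that stayed above 0 on every scale. miR-302d-3p was at 62.6 and 70.0 at day 7 and 364, 398 and 463 at day 21, with the outgrowths well above the embryoid bodies (2.61 ± 0.22, limma adjusted p = 5.24e-08). miR-302a-3p changed by 2.63 ± 0.33 and miR-302b-3p by 1.99 ± 0.39. miR-302d-5p was at 0 and 0 at day 7 and 7.79, 4.01 and 2.90 at day 21, at least 3-fold above the day 7 floor. Of 13 miR-290 cluster miRNAs none were higher on either scale and 2 fell (median −0.22), where 11.1% of all tested miRNAs fell. With equal totals the median was 0.65, and 3 members were called higher and none lower. miR-295-3p, which shares its seed with miR-302d-3p, was at 1751 and 1394 at day 7 and 936, 1045 and 1031 at day 21 (−0.64 ± 0.30, limma adjusted p = 0.12, lower on the deposited values only). miR-293-3p fell by 0.61 ± 0.19 on the rescaled values and was at 0.41 with equal totals, and was not called without any 1 of 3 libraries (−0.70 to −0.53). The ratio of miR-302d-3p to miR-295-3p was 0.0358 and 0.0502 at day 7 and 0.389, 0.381 and 0.450 at day 21. In undifferentiated D3 cells it was 0.00926, 0.0113 and 0.0114. The miR-302 cluster held 0.179% of the signal at day 0, 0.022% at day 7 and 0.251% at day 21, and the miR-290 cluster held 22.1%, 0.668% and 1.13%. These shares at day 7 are of a total that miR-10 dominated. Outside miR-10 the miR-290 cluster held 1.80% to 2.06% at day 7 and 1.22% to 1.39% at day 21, which was lower. The miR-302 cluster held 0.058% to 0.069% and 0.267% to 0.303%.

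Epithelial, endodermal and blood miRNAs were also higher in part. Of 11 epithelial miRNAs tested, 1 rose, which is near the 8.06% of all tested miRNAs that rose. Another 6 were higher on the rescaled values only (median 1.04), where 19.4% of all tested miRNAs were higher. miR-205-5p, a miRNA of stratified epithelia, was at 291 and 369.5 at day 7 and 1202, 849 and 862 at day 21 (1.54 ± 0.20, limma adjusted p = 7.3e-06). Of 6 endodermal miRNAs, 2 rose and 3 more were higher on the rescaled values only (median 1.71). One of the rises, miR-215-5p, passed the filter only through the day 21 libraries. miR-375-3p, known from endocrine pancreas, was at 74.4 and 93.2 at day 7 and 528, 495 and 358 at day 21 (2.44 ± 0.27, limma adjusted p = 2.04e-06). miR-215-5p, of gut and liver, was at 0 and 0 at day 7 and 4.38, 3.64 and 42.7 at day 21, so replicate 3 of day 21 stood far above the other outgrowth libraries. Its change was 4.31 ± 0.84 with that library and 3.23 without it. miR-449a-5p, known from multiciliated cells, was at 4.51 and 1.58 at day 7 and 38, 28.1 and 32.4 at day 21 (3.37 ± 0.60, limma adjusted p = 0.000304), and miR-34a-5p, with the same seed, was not called (0.30 ± 0.19).

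Of 18 blood and endothelial miRNAs listed, 10 were tested and 4 of these rose. miR-146b-5p and miR-223-3p passed the filter only through the day 21 libraries, so this count draws in part on members that had to differ. miR-146b-5p was at 0 and 0 at day 7 and 23.9, 19.3 and 27.4 at day 21, at least 14.4-fold above the day 7 floor (limma adjusted p = 1.17e-05). miR-146a-5p, which shares its seed and is induced in inflammatory signalling, was at 54.1 and 77.4 at day 7 and 232, 226 and 221 at day 21 (1.80 ± 0.31). miR-142a-5p, a miRNA of blood cells, was at 2.26 and 1.05 at day 7 and 28.7, 29.1 and 21.6 at day 21 (3.71 ± 0.30). The myeloid miR-223-3p was at 0 and 0 at day 7 and 6.81, 6.19 and 7.05 at day 21, at least 4.09-fold above the floor. Of other blood miRNAs, miR-144 and miR-451a did not pass the filter. Summed over the day 7 and the day 21 libraries, miR-144-3p had 0 and 0 reads, miR-144-5p 1 and 6, and miR-451a 0 and 4. For miR-150-5p there were 1 and 2 reads at day 7 and 3, 2 and 0 at day 21. These blood miRNAs stayed low in both stages, and most of the list's signal was miR-126a-5p, at 960.2 and 901 at day 7 and 482, 791 and 577 at day 21 (−0.62 ± 0.27, limma adjusted p = 0.0901, lower on the deposited values only).

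The large imprinted Dlk1-Dio3 region had a list median of 0.07 over 78 tested miRNAs (100 listed), close to 0.05 for all miRNAs. In it 1 miRNA rose and 4 fell, where 8.06% and 11.1% of all tested miRNAs did, and 8 more were higher on the rescaled values only. The one that rose was miR-136-5p, at 51.3 and 48.4 at day 7 and 198, 206 and 251 at day 21 (2.11 ± 0.54, limma adjusted p = 0.00586). On the rescaled values this call was lost without replicate 3 of day 7 (change 2.03), and on the deposited values without any 1 of the 5 libraries (1.13 to 1.54). miR-370-3p was at 334 and 388 at day 7 and 207, 169 and 112 at day 21 and fell by 1.19 ± 0.26, and miR-134-5p changed by −0.69 ± 0.20 (0.33 with equal totals, and not called without either day 7 library, −0.76 and −0.69). The most abundant miRNA of the region, miR-127-3p, was at 15552 and 16121 at day 7 and 24257, 19958 and 21505 at day 21 (0.46 ± 0.15, higher on the rescaled values only). Of 42 miRNAs of the Sfmbt2 intron cluster, whose members are near-identical and uncertain one by one, 4 were higher on the rescaled values only and none were called on both scales (median 0.48). On the rescaled values 19.4% of all tested miRNAs were higher. miR-182-5p, a leading miRNA of undifferentiated cells, was at 3606 and 4398 at day 7 and 6132, 6916 and 7711 at day 21 and was higher on the rescaled values only (0.79 ± 0.16).

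Hairpins on the same strand within 10000 bases of each other formed 42 clusters with tested miRNAs. In 36 of them at least 1 miRNA was called on the rescaled values, and 12 of these had a single one. Of the 24 clusters with more called miRNAs, 13 had only higher ones, 8 only lower ones and 3 both. Clusters share mature sequences made at more than 1 locus, so these counts are not of independent loci. The clusters with both directions were that of miR-181c and miR-181d on chromosome 8, that of miR-99a and let-7c on chromosome 16, and the larger block of the Dlk1-Dio3 region on chromosome 12. In the cluster of miR-23a, miR-27a and miR-24-2 (chr8:84208563-84208896, plus strand) all 5 tested miRNAs were called higher on the rescaled values, 3 of them on both scales. miR-23a-3p was at 18.6 and 18.9 at day 7 and 81.8, 69.2 and 83.0 at day 21 (2.02 ± 0.28). miR-27a-3p was at 66.5 and 70.0 at day 7 and 210.8, 206 and 263 at day 21 (1.71 ± 0.28). miR-27b-3p, from a cluster on chromosome 13 and differing from miR-27a-3p at 1 position, was at 2595 and 2509.7 at day 7 and 2692, 3093 and 3323 at day 21 and was called on neither scale (0.25 ± 0.16).

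Seed families gave the sum of such differences. The seed GAGGUAG of let-7 and miR-98 went from 2.35% to 12% of the signal, with 6 of its 9 members rising, and the miR-10 seed ACCCUGU went from 65.2% to 13.2%. Shares of the whole signal grow where miR-10 recedes. Outside miR-10 the let-7 list held 6.78% to 6.89% at day 7 and 12.9% to 15.2% at day 21. Of 6 miRNAs with the seed AAAGUGC (miR-17, miR-20, miR-93 and miR-106), 5 fell, although their share of the whole signal went from 0.788% to 0.883%. That of the seed AUUGCAC went from 3.05% to 3.60%. Among 6 with the seed AUUGCAC, 4 fell, whereas miR-367-3p of the miR-302 cluster was higher on the rescaled values only (1.78 ± 0.58). For the seed CAGUGCA, miR-148a-3p was at 733 and 991 at day 7 and 3199, 2957 and 5021 at day 21 (2.09 ± 0.24, limma adjusted p = 2.67e-06). With that seed, miR-148b-3p was at 281 and 208 at day 7 and 111, 158 and 191 at day 21 (−0.69 ± 0.27, not called on the rescaled values). The ratio of miR-148a-3p to miR-148b-3p went from 2.61 and 4.77 to 28.8, 18.7 and 26.3, with the sequences differing at 2 positions. For the seed AGCACCA, the ratio of miR-29a-3p to miR-29c-3p went from 2.43 and 3.25 to 13, 15.2 and 19.9, at low levels of miR-29c-3p.

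The 2 strands of a hairpin can be compared within a library without any scaling, apart from the pseudocount of 0.48 in the tested ratio. On the deposited values 1 read was worth 0.72 to 0.78 at day 7 and 0.29 to 0.40 at day 21. For strands with few reads the tested ratio thus still depends on the library factor. Of 149 hairpins with both strands tested, 5 had a higher ratio of the 5p to the 3p strand at day 21 (3.36%) and none a lower one (limma on the log2 ratio, adjusted p under 0.05). For miR-181c the 5p strand held 44.3% and 48.4% of the reads at day 7 and 79.0%, 76.1% and 80.0% at day 21. This was the 1 call of the 5 that held without each library in turn. The groups were far apart, and the log2 ratio changed by 2.07 ± 0.24 (limma adjusted p = 1.63e-05). This rests on 776 and 824 reads of miR-181c-5p and 976 and 880 of miR-181c-3p at day 7, and on 1742 to 2237 and 464 to 703 at day 21. On the rescaled values miR-181c-5p was at 438 and 434 at day 7 and 848, 815 and 862 at day 21 (0.95 ± 0.15, higher on these values only). miR-181c-3p was at 550.3 and 463 at day 7 and 226, 256 and 215 at day 21 (−1.12 ± 0.19, lower on both scales, −0.10 with equal totals). miR-181d-5p, cut from the neighbouring hairpin (chr8:84178759-84178781, minus strand, within Nanos3), fell by 0.80 ± 0.19 on the rescaled values and was at 0.22 with equal totals. The ratio of miR-181c-5p to miR-181d-5p went from 0.325 and 0.314 to 1.05, 1.10 and 1.08.

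For miR-30d the 5p strand went from 86.7% and 91.4% to 97.3%, 97.2% and 97.0% (log2 ratio 2.01 ± 0.36, limma adjusted p = 0.00299), a call lost without replicate 2 of day 7 (1.65). For miR-136 it went from 33.0% and 34.2% to 61.8%, 58.1% and 61.6% (1.59 ± 0.42, limma adjusted p = 0.0471), so that the more abundant strand changed. This call was lost without any 1 of the 5 libraries. For miR-10b the 5p strand held 99.92% and 99.94% at day 7 and 99.96% to 99.98% at day 21 (1.19 ± 0.31, limma adjusted p = 0.0471), a call lost without any 1 of 4 libraries (0.99 to 1.39 over the 5 libraries left out in turn). For miR-142a the day 7 libraries held 5 and 2 reads of both strands together, and the shares overlapped between groups, so its change of 2.43 ± 0.54 rests on few reads (limma adjusted p = 0.0154) and was not called without any 1 of 4 libraries (2.19 to 2.79 over the 5 left out in turn).

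**Figure D5:**
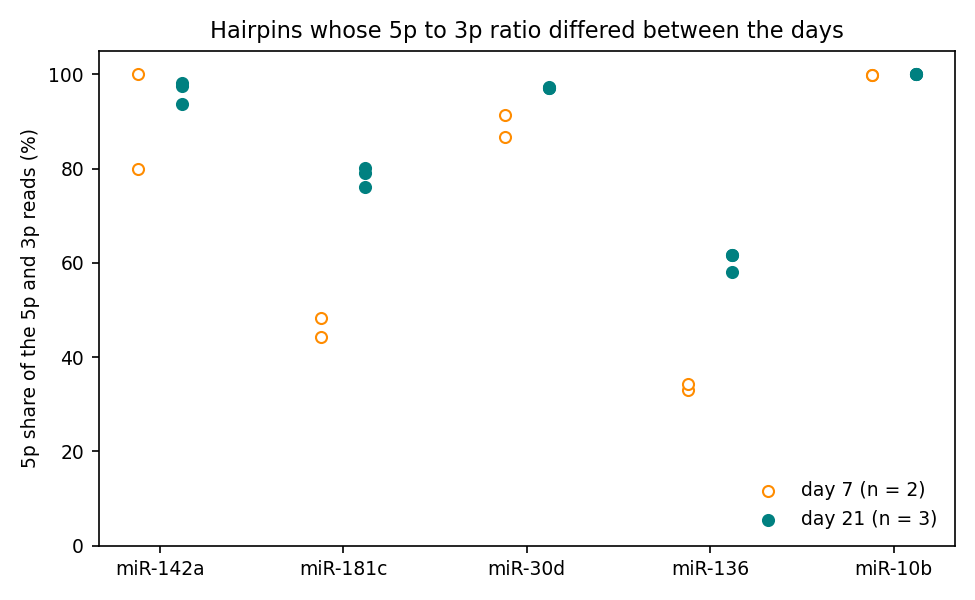
Share of the 5p strand among the 5p and 3p reads of a hairpin (percent) in each library, for the 5 hairpins whose ratio differed between the days. The open day 7 points and filled day 21 points are far apart for miR-181c (44.3% and 48.4% against 76.1% to 80.0%) and miR-136, and overlap for miR-142a, which had 5 and 2 reads at day 7.

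GC content had a lower median in the miRNAs that rose than in those that fell, a difference that was not tested. The ranges between the quartiles overlapped, at 36.4% to 48.8% for the rises and 44.0% to 60.4% for the falls. The median GC content of the mature sequence was 40.9% for the 42 miRNAs that rose (35 with a sequence), 47.8% for the 58 that fell (54 with a sequence) and 47.8% over all tested miRNAs (429 with a sequence). Across the 429 miRNAs Pearson's r of GC content with the log2 change was −0.167, and it was −0.229 over the 138 with a mean rescaled value of at least 100. miRNAs are not independent, and they share libraries and families. Entries that look like pieces of ribosomal or transfer RNA moved both ways, with 3 of 8 falling and miR-6240 higher on the rescaled values only (38.3 and 44.2 at day 7 and 143, 144 and 111 at day 21). miR-1983, of that list, fell by 1.69 ± 0.25 and miR-6539 by 2.17 ± 0.29. Their summed share outside miR-10 was 0.125% to 0.132% at day 7 and 0.0802% to 0.104% at day 21. The part of base composition or RNA quality in the changes was not tested.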

How the data were processed

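Small RNA of D3 and B8 cells was sequenced. The authors deposited a signal per mature miRNA, a read number scaled by 1 factor per library; the table title names TMM. Per the submitters' processing notes CASAVA, FastQC, Bowtie, Partek and the genome mm10 were used, without versions, and the rule for reads matching several miRNAs is not given in the sources used here. The table has 1 column of no sample, a sum, which was not used, and B8 at day 21 was not analysed here.

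Values up to 1000 reads came out as whole reads in 100% of cases (tolerance 0.01 of a read), so whole reads were recovered. These served edgeR 4.0.16 and DESeq2 1.42.0 as alternatives, chosen after seeing the data. A mean of 5 or more per 1000000 of the column total over 14 libraries left 521 of 1033 miRNAs. Limma 3.58.1 (R 4.3.3) was fitted to log2(value + 0.48), 0.48 being the pseudocount, with 14 libraries in 5 groups, a mean-variance trend in the prior and 9 residual df. Tests are 2-sided with Benjamini-Hochberg adjustment. Folds on this scale understate changes of low miRNAs. The fits were also run on simulated data with as many rises as falls. Those data lacked the loss of miR-10 and the unequal column totals, so they cannot vouch for the calls made here. Floors of 3 reads cover counting error only, as no molecular identifiers are given.

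The members and the lists were chosen with earlier results of these data known. Named were the 8 largest rises and falls called on both scales above the median level, the 3 highest-level members per list and its most abundant member of opposite direction, the 5 most abundant miRNAs of each day, and up to 5 strand changes each way. These further miRNAs were named after their values were seen: miR-215-5p, miR-146b-5p, miR-223-3p, miR-142a-5p, let-7e-5p, let-7b-5p, let-7g-5p, miR-98-5p, miR-21a-5p, miR-499-5p, miR-378a-3p, miR-574-3p, miR-17-5p, miR-20a-5p, miR-181c-3p, miR-99a-5p, miR-100-5p, miR-423-3p, miR-363-3p, miR-92a-1-5p, miR-145a-5p, miR-302d-5p, miR-367-3p, miR-210-3p, miR-136-5p, miR-214-3p, miR-24-3p, miR-23b-3p, miR-6539, miR-124-3p, miR-411-5p, miR-370-3p, miR-296-3p, miR-99b-3p, miR-18b-5p and miR-293-3p. Alternatives were a pseudocount of 0.2 or of 10 (per 1000000), leaving the filter out or raising it to 50 per 1000000, no trend in the prior, a fit of these groups alone, a replicate block, each replicate left out, equal totals, and totals equal outside miR-10.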

Additional observations from a re-analysis of the deposited data

How the results depend on the processing

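On the deposited values, where 42 miRNAs were higher and 164 lower, the counts were 26 higher with a pseudocount of 0.2 per 1000000, 199 and 11 with equal totals, 83 lower with totals equal outside miR-10, 140 and 74 by edgeR on recovered reads, and 116 and 87 by DESeq2. Leaving out 1 library gave 27 to 43 higher and 89 to 154 lower. On the rescaled values, with 101 higher and 58 lower, the lower count was 91 with a pseudocount of 10 per 1000000 and 106 with the compared groups alone, and leaving out 1 library gave 54 to 93 higher and 33 to 53 lower. edgeR called all 42 rises and 54 of the 58 falls in the same direction, and DESeq2 called 41 and 58.

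With equal totals these falls turned to positive log2 changes: miR-25-3p 0.50, miR-301a-3p 0.46, miR-293-3p 0.41, miR-134-5p 0.33, miR-15b-5p 0.29, miR-128-3p 0.29, miR-130b-3p 0.28, miR-181d-5p 0.22, miR-93-5p 0.20, miR-423-3p 0.13, miR-92b-3p 0.12, miR-17-5p 0.10, miR-30c-2-3p 0.097, miR-92a-3p 0.096, miR-298-5p 0.090 and miR-20a-5p 0.0074. Under that setting miR-10, with 65.3% of the day 7 signal, counts in full toward the total.

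The count of hairpins with a higher and a lower ratio of 5p to 3p was 5 and 0. It was 2 and 0 with a pseudocount of 0.2 per 1000000, 11 and 6 with 10 per 1000000, 13 and 10 without a filter, 7 and 1 with a filter at 50 per 1000000, 3 and 0 without a trend, 13 and 6 with the compared groups alone, and 1 to 3 and 0 without 1 library. The cause of these shifts was not tested. Of the 76 named miRNAs called on both scales, 17 lost the rescaled call and 15 the deposited call without at least 1 library.

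Replicate numbers 2 and 3 are common to both days, but the labels do not say that they pair samples, and same-numbered deviations correlated at 0.072 and 0.040. As day 7 had 2 libraries, their deviations from the group mean mirror each other, so the 2 values are not separate checks of pairing. With a replicate block the counts were 41 and 166 on the deposited values, 103 and 66 on the rescaled values, and 4 and 0 for strand ratios. With 2 and 3 libraries a group, miRNAs near 3 reads are not well resolved.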
